A study of Sus scrofa with 4 samples.

Results

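CD8 T cells of regenerated bone from Bama mini-pigs (Sus scrofa) were chosen by their UMI counts, as barcodes that passed a filter on cell quality, held at least 2 UMIs of CD3D, CD3E and CD3G together and at least 1 UMI of CD8A, and held no UMI of CD4, FOXP3, BLK, SOX13, CD79B, MS4A1 or CSF1R. A UMI is a tag that marks 1 captured RNA molecule. There were 1896 such cells among 50935 kept barcodes, and among 13633 kept barcodes with at least 2 CD3 UMIs. The genes of this gate chose the cells, so their levels are a description and carry no test. The study set bone formed under the 1797 peptide against bone formed under a control peptide, in pigs aged 8 months, by droplet sequencing of the 3′ ends of RNA after collagenase digestion and lysis of red cells. It had 2 libraries with the 1797 peptide and 2 with the control peptide that were used here. Whether the libraries within a group were made from different animals is not in the labels, so p-values measure the spread between libraries alone, and that spread may be technical. Values of 4 libraries are given in the order 1797 library 1, 1797 library 2, control library 1, control library 2.

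CD8 T cells recognise peptides held on MHC class I and kill the presenting cell by releasing perforin and granzymes, or act through cytokines such as interferon gamma. In most of them the co-receptor is a pair of a CD8A and a CD8B chain. In pigs, CD8A alone is also carried by natural killer (NK) cells, by some gamma-delta T cells and by activated or memory CD4 helper cells, so CD8A does not by itself mark the classical cytotoxic lineage. Within the CD8 lineage, naive and central memory cells keep CCR7, IL7R, LEF1 and TCF7, while effector cells carry granzymes, perforin and NK receptors.

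The libraries held 12534 and 13145 kept barcodes with the 1797 peptide, against 13401 and 11855 with the control peptide. Their totals were 87844389 and 98758412 UMIs with the 1797 peptide, against 96410215 and 98294210 UMIs with the control peptide. The median kept barcode had 3966 and 3398 UMIs with the 1797 peptide, against 5512 and 4848 UMIs with the control peptide. Among the barcodes of the CD8 T cells, 1 was shared between libraries. RNA of other cell types was found in the barcodes of T cells, at a level that differed between libraries. How it came there was not tested. Cells with at least 3000 UMIs were thinned to 3000 UMIs. HBB of red cells was then found in 46.4, 16.0, 57.6 and 15.8% of CD8 T cells. In B cells (no CD3 UMI, with CD79B and MS4A1) it was found in 51.3, 18.9, 57.3 and 19.2%. S100A8 of neutrophils was found in 1.37, 5.35, 0.288 and 17.8% of CD8 T cells and in 0.337, 3.72, 0.174 and 18.8% of B cells. Library 1 of each group was thus the one with more HBB, and library 2 of each group the one with more S100A8, in both cell types.

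By library, the gate held 372 and 321 cells with the 1797 peptide, against 710 and 493 cells with the control peptide. Their median UMI count was 7232 and 7709 with the 1797 peptide, against 7030 and 8043 with the control peptide, and the median number of genes was 2308 and 2421, against 2327 and 2518. The sums tested below were made of 3039374 and 2701448 UMIs with the 1797 peptide, against 5600353 and 4479574 UMIs with the control peptide. Scrublet, a doublet caller, marked 13 and 21 of the cells with the 1797 peptide, against 26 and 32 with the control peptide. They were kept, and removed only as an alternative.

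CD3E and CD8A, the markers of the label, are genes of the gate, so their levels describe the cells and do not check the label. CD8B, a chain the gate did not use, was looked at as well. CD3E (chromosome 9, 45619730 to 45633972, build Sscrofa11.1) stood at 537, 669, 574 and 547 CPM, which are UMI counts scaled to the same total in each sum, in CD8 T cells, against 542, 592, 626 and 540 CPM in CD4 T cells. CD8A (chromosome 3, 57999228 to 58029768) stood at 230, 227, 253 and 244 CPM in CD8 T cells. The CD4 T cells used as a comparison met the same gate with CD4 at 1 UMI or more and CD8A at 0, which gave 1254 cells. CD8B (chromosome 3, 57968358 to 57986450), the second chain of the classical co-receptor, was not used by the gate. It was found in 24.5, 23.1, 18.7 and 30.6% of CD8 T cells, in 0, 0, 1.92 and 1.39% of CD4 T cells and in 0.168, 0.524, 0.344 and 1.62% of B cells, whose median depth was 9436, 11351, 9588 and 11903 UMIs. Among CD8 T cells with at least 3000 UMIs, thinned to 3000 UMIs, its share was 11.8, 7.55, 9.37 and 15.0%. In all, 449 of the 1896 cells held a CD8B UMI and 1447 held none.

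The gate has thresholds, so the cells at its edges were described with GZMH, an effector gene it did not use. Cells with exactly 1 CD8A UMI numbered 203, 161, 366 and 212, and GZMH was found in 60.6, 85.1, 73.8 and 75.9% of them. Over all members GZMH was found in 65.6, 84.7, 74.2 and 80.1%. Just outside stood 551, 453, 1040 and 448 cells that met every other condition but had no CD8A UMI, with GZMH in 36.7, 55.2, 47.4 and 62.1% of them. A further 97, 30, 114 and 36 cells had 1 CD3 UMI and the rest of the profile, with GZMH in 60.8, 73.3, 64.9 and 69.4%. Of all cells with at least 2 CD3 UMIs and a CD8A UMI, the gate kept 61.3, 60.0, 57.4 and 60.6%. Of the cells it left out, 95, 66, 168 and 83 held CD4 and 90, 81, 191 and 157 held BLK, with some in both counts.

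CD8 T cells formed a smaller share of the 1797 libraries than of the control libraries. They made up 2.97 and 2.44% of kept barcodes with the 1797 peptide, against 5.30 and 4.16% with the control peptide. Both 1797 libraries lay below both control libraries. The means were 2.71% ± 0.372 with the 1797 peptide and 4.73% ± 0.806 with the control peptide (SD, n = 2 each), a difference of -2.02 percentage points. The exact two-sided permutation test gave p = 0.33, which is the smallest value that 2 libraries against 2 allow. As a share of cells with at least 2 CD3 UMIs, they made up 12.8 and 11.0% with the 1797 peptide, against 14.5 and 16.9% with the control peptide, so the groups did not overlap on this base either. Depth differed with the groups, as given above. Barcodes with at least 1000 UMIs were also thinned to 1000 UMIs before gating, and the others were left out. This kept 10286 and 11792 barcodes with the 1797 peptide, against 11923 and 10607 with the control peptide. Only 23 and 28 of them met the gate with the 1797 peptide, against 46 and 31 with the control peptide. The shares were 0.231% ± 0.00979 with the 1797 peptide and 0.339% ± 0.0661 with the control peptide (SD, n = 2 each). The part of depth in the difference was not tested beyond this value.

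**Figure D1:**
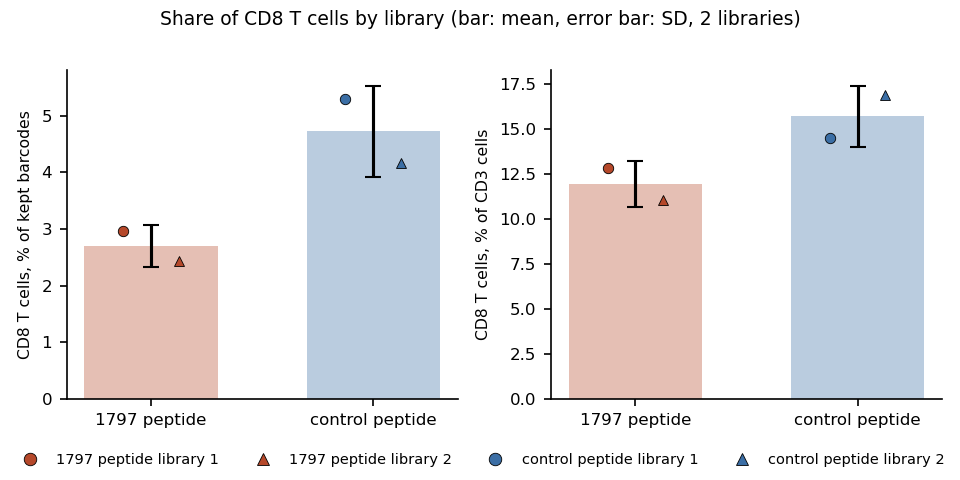
Share of CD8 T cells in each library, in percent of kept barcodes (left) and in percent of cells with at least 2 CD3 UMIs (right). Bars are means of 2 libraries, error bars their SD and points the libraries; both 1797 points lie below both control points in either panel (2.97 and 2.44% against 5.30 and 4.16% on the left).

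Against CD4 T cells of the same libraries, CD8 T cells were higher in genes of killing and in NK receptors. Perforin, granulysin, the granzymes B, H and M, the chemokine CCL5 and the receptors KLRK1 and KLRD1 were higher in all 4 libraries. They carried less of the costimulatory receptor TNFRSF4, less CD40LG, the ligand through which helper T cells license B cells and dendritic cells, and less of the lymph node homing receptor CCR7. Counts were summed per library and gate and fitted with edgeR's quasi-likelihood test with the library as a block, and p-values were adjusted by the Benjamini-Hochberg method over all genes tested. At an adjusted p under 0.05, 2404 of 9840 genes differed (24.4%), with 1286 higher (13.1%) and 1118 lower (11.4%) in CD8 T cells. Without the library block the number was 1238, and it was 1536 where CD8 T cells also had to hold a CD8B UMI and CD4 T cells none.

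Of the 17 genes on the list of cytotoxic effectors, 16 were tested, 15 were higher and 1 was lower in CD8 T cells. Their median log2 fold change was 2.60, against 0.01 over all genes tested. PRF1 (chromosome 14, 73515306 to 73520256), perforin, which opens pores in the target cell, had 81.3, 43.3, 88.0 and 89.3 CPM in CD8 T cells, against 2.92, 2.27, 3.12 and 3.47 CPM in CD4 T cells. The gates did not overlap, and the log2 fold change was 4.67 ± 0.17 (SE, edgeR adjusted p = 3.94e-07). GNLY (chromosome 3, 59067327 to 59072034), granulysin, known in pigs as NK-lysin, had 325, 485, 628 and 856 CPM in CD8 T cells, against 10.4, 91.2, 26.8 and 73.3 CPM in CD4 T cells. CD8 lay above CD4 in every library, and the log2 fold change was 3.68 ± 0.32 (SE, edgeR adjusted p = 2.15e-05).

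Granzymes are the proteases that perforin lets into the target cell, and the copies measured here were not equally tied to the CD8 gate. GZMB (chromosome 7, 74705499 to 74708781) had 30.6, 67.7, 33.4 and 64.5 CPM in CD8 T cells, against 0.836, 12.9, 1.82 and 2.97 CPM in CD4 T cells. Library 2 of each group was the higher one within the CD8 gate. GZMH (chromosome 7, 74723800 to 74727396), its neighbour, had 277, 503, 397 and 413 CPM in CD8 T cells, against 17.5, 144, 85.1 and 97.1 CPM in CD4 T cells. The log2 fold change was 3.54 ± 0.33 for GZMB and 2.36 ± 0.24 for GZMH (SE, edgeR adjusted p = 3.76e-05 and 7.20e-05). Granzyme genes are related in sequence, and how the counting split reads between them is not given in the sources used here. GZMK (chromosome 16, 34217339 to 34226139), the granzyme of less differentiated memory cells in humans and mice, had 40.5, 20.4, 26.2 and 35.5 CPM in CD8 T cells, against 12.5, 12.5, 18.0 and 29.2 CPM in CD4 T cells. Its log2 fold change was 0.77 (edgeR adjusted p = 0.0275), and 7 of 12 alternatives called it. Among those that lost the call were leaving out 1797 library 1 (0.47, edgeR adjusted p = 0.0954) and leaving out 1797 library 2 (0.78, edgeR adjusted p = 0.0749). SRGN, the core protein on which granule contents are packed, was the list's gene that was lower, at 742 ± 124 CPM in CD8 T cells and 1010 ± 64.3 CPM in CD4 T cells (SD, n = 4 libraries each, edgeR adjusted p = 0.00241).

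NK receptors were among the genes furthest from CD4 T cells. KLRK1 (chromosome 5, 61646691 to 61655386), the activating receptor NKG2D for stress ligands, had 388, 246, 399 and 351 CPM in CD8 T cells, against 7.94, 22.3, 18.5 and 16.9 CPM in CD4 T cells. All 4 libraries showed the same order, and the log2 fold change was 4.38 ± 0.23 (SE, edgeR adjusted p = 1.32e-06). KLRD1 (chromosome 5, 61662083 to 61673109), CD94, the partner chain of NKG2 receptors, and LY49 (chromosome 5, 61439354 to 61457948), a lectin-like receptor of the same gene complex, were higher by 3.76 ± 0.35 and 3.93 ± 0.41 on the log2 scale (SE, edgeR adjusted p = 3.66e-05 and 7.11e-05). Of the 11 NK markers tested, 10 were higher in CD8 T cells and none was lower, with a median log2 fold change of 2.43. Over the 12 markers, the summed level was 1654, 1828, 2258 and 2439 CPM in CD8 T cells, against 551, 640, 799 and 755 CPM in CD4 T cells. The activating receptor NCR1, which in humans and mice defines NK cells, stood at 15.4 ± 3.6 CPM in CD8 T cells and at 0.697 ± 0.808 CPM in CD4 T cells (SD, n = 4 libraries each). KLRK1, KLRD1 and GNLY stand on both the NK list and the cytotoxic list. NK cells also carry CD8A in pigs, and their part in these values was not tested.

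Secreted signals followed. CCL5 (chromosome 12, 39652731 to 39659121), a chemokine for T cells and monocytes, had 2271, 3108, 3708 and 3278 CPM in CD8 T cells, against 79.0, 356, 279 and 247 CPM in CD4 T cells. Its log2 fold change was 3.81 ± 0.21 (SE, edgeR adjusted p = 1.48e-06), with CD8 above CD4 in every library. XCL1, which attracts cross-presenting dendritic cells, was higher by 4.35 ± 0.43, and CCL4, a chemokine for T cells and monocytes, by 2.26 ± 0.18 on the log2 scale (SE, edgeR adjusted p = 5.36e-05 and 1.48e-05). IFNG, interferon gamma, had 15.5, 35.9, 19.5 and 10.5 CPM in CD8 T cells, against 12.9, 10.6, 6.51 and 16.9 CPM in CD4 T cells. It was higher in 3 of 4 libraries and did not pass the test (edgeR adjusted p = 0.158), although it did without control library 2 (log2 fold change 1.21, edgeR adjusted p = 0.0293). Of 11 cytokines and chemokines tested, 4 were higher and 2 were lower, one of them LTB, a builder of lymphoid tissue, at 34.9 ± 10.1 CPM in CD8 T cells and 64.9 ± 7.0 CPM in CD4 T cells (SD, n = 4 libraries each).

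The helper and memory side ran the other way. TNFRSF4, the costimulatory receptor OX40, had 7.57, 1.85, 3.39 and 5.36 CPM in CD8 T cells, against 180, 93.4, 106 and 93.7 CPM in CD4 T cells. The log2 fold change was -4.68 ± 0.19 (SE, edgeR adjusted p = 3.94e-07), and the gates were far apart in every library. CD40LG had 7.57, 8.14, 7.68 and 6.03 CPM in CD8 T cells, against 68.9, 56.0, 67.1 and 57.0 CPM in CD4 T cells, a log2 fold change of -3.08 ± 0.15 (SE, edgeR adjusted p = 8.86e-07). Its level barely moved between libraries within either gate. CCR7 had 70.4, 84.8, 45.9 and 62.5 CPM in CD8 T cells, against 213, 246, 206 and 208 CPM in CD4 T cells, a log2 fold change of -1.76 ± 0.11 (SE, edgeR adjusted p = 2.85e-06). Of 14 genes of naive and central memory T cells, 8 were lower and 1, the kinase TXK, was higher, and the list's median was -0.26 on the log2 scale. IL7R, the receptor for the survival cytokine IL-7, had a log2 fold change of -1.33 ± 0.16 and S1PR1, which lets T cells leave tissue, one of -0.99 ± 0.08 (SE, edgeR adjusted p = 0.000162 and 1.03e-05). CD28 and ICOS, costimulatory receptors, stood at 89.8 ± 23.9 and 64.5 ± 19.3 CPM in CD8 T cells, against 184 ± 12.6 and 165 ± 25.1 CPM in CD4 T cells (SD, n = 4 libraries each), and both were lower by edgeR (adjusted p = 0.000160 and 8.41e-05).

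Lists of tissue residence and of inhibitory receptors followed the same direction in most of their calls. Of 11 residency genes tested, 7 were higher and none was lower, and their median was 0.94 on the log2 scale. Neither CXCR6, which is on that list, nor CD69 was called. The log2 fold change of CD69 ran between -0.82 and -0.12 over 12 alternatives. ITGAE, the integrin chain CD103 that binds epithelial cadherin, had 39.8, 27.4, 32.3 and 31.5 CPM in CD8 T cells, against 11.7, 10.2, 15.9 and 8.43 CPM in CD4 T cells, with no overlap. ZNF683, the residency factor Hobit in mice, stood at 12.2 ± 6.03 CPM in CD8 T cells and 1.05 ± 0.722 CPM in CD4 T cells (SD, n = 4 libraries each). Of 11 genes on the checkpoint and exhaustion list, 6 were higher and 2, CTLA4 and TOX, were lower, with a median log2 fold change of 0.70. TIGIT was among the 6, and its call was lost on leaving out any of the 4 libraries. PDCD1, also on the list, was not called and ran between -0.60 and -0.16 over 12 alternatives. LAG3, an inhibitory receptor for MHC class II, was higher by 2.27 ± 0.30 and HAVCR2, TIM-3, by 2.65 ± 0.31 on the log2 scale (SE, edgeR adjusted p = 0.000369 and 0.000148). CX3CR1, the fractalkine receptor of circulating effector cells, stood at 61.4 ± 14.6 CPM in CD8 T cells and 9.82 ± 6.32 CPM in CD4 T cells (SD, n = 4 libraries each, edgeR adjusted p = 0.000152).

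Antigen presentation split in 2 directions. Of 9 MHC class II genes tested, 7 were higher in CD8 T cells and 1, SLA-DOB, was lower, with a median log2 fold change of 0.72. SLA-DRA, the alpha chain of the class II molecule DR, stood at 134 ± 32.1 CPM in CD8 T cells and 85.3 ± 33.6 CPM in CD4 T cells (SD, n = 4 libraries each). Of 17 genes of MHC class I and its peptide loading, none was higher and 7 were lower, with a median of -0.23. B2M, the light chain of class I, was among them, at 1394 ± 137 CPM in CD8 T cells and 1848 ± 59.2 CPM in CD4 T cells (SD, n = 4 libraries each, edgeR adjusted p = 0.000345). Of 8 genes that act on osteoclasts, CSF1, the macrophage colony-stimulating factor, was higher, and TNFSF11, the osteoclast factor RANKL, and TGFB1 were lower. TNFSF11 stood at 13.8, 0.370, 1.96 and 4.24 CPM in CD8 T cells, against 25.1, 1.89, 3.90 and 6.44 CPM in CD4 T cells, with 1797 library 1 the highest in both gates.

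**Figure D2:**
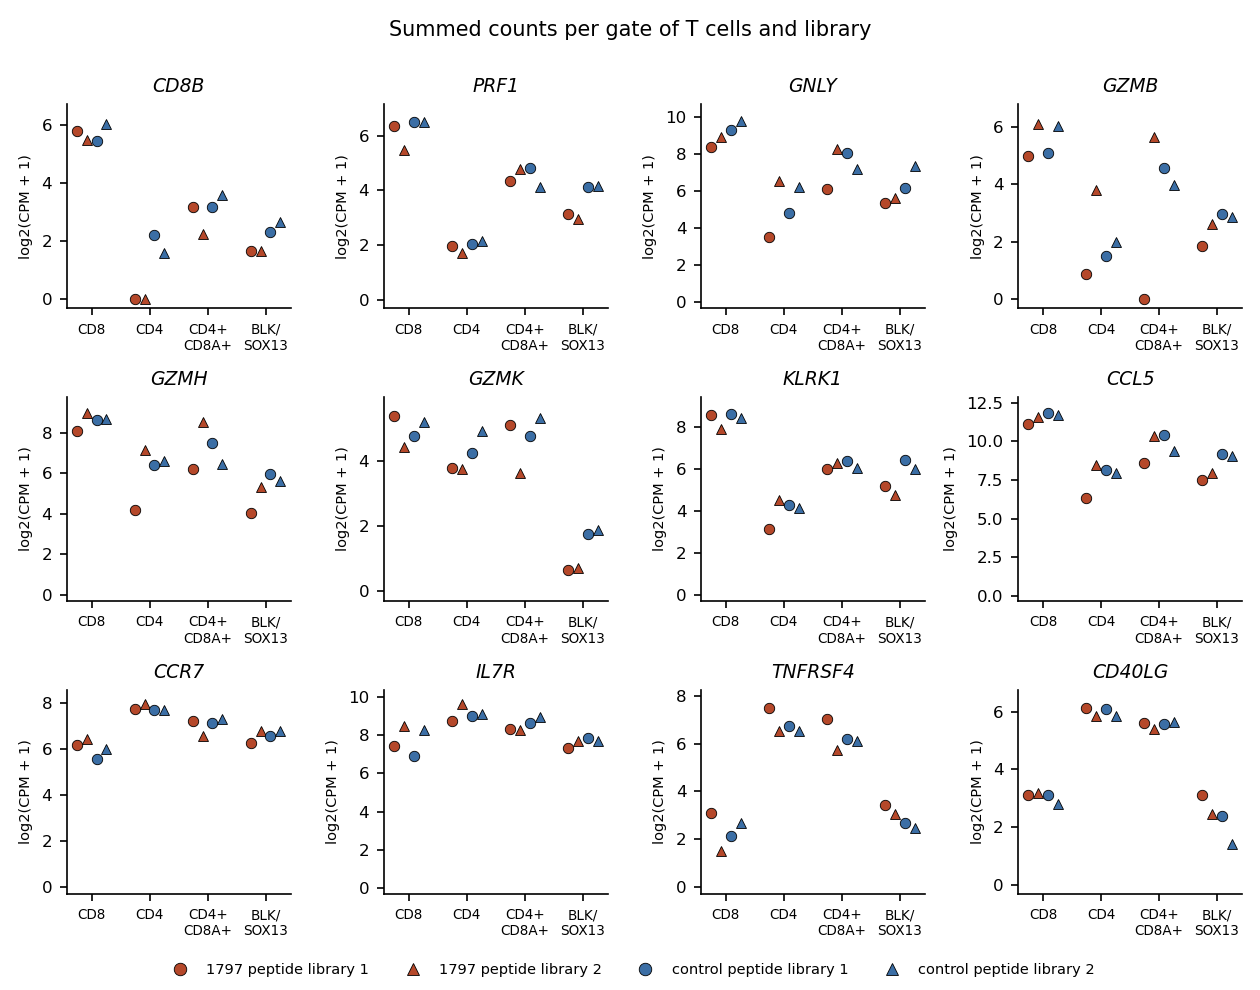
Levels of 12 genes as log2(CPM + 1) in summed counts of CD8, CD4, CD4+CD8A+ and BLK/SOX13 T cells, with 1 point for each of the 4 libraries. PRF1, GNLY, KLRK1 and CCL5 are highest in the CD8 gate in every library, TNFRSF4 and CD40LG are highest in the CD4 gate, and GZMK is lowest in the BLK/SOX13 gate.

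**Figure D3:**
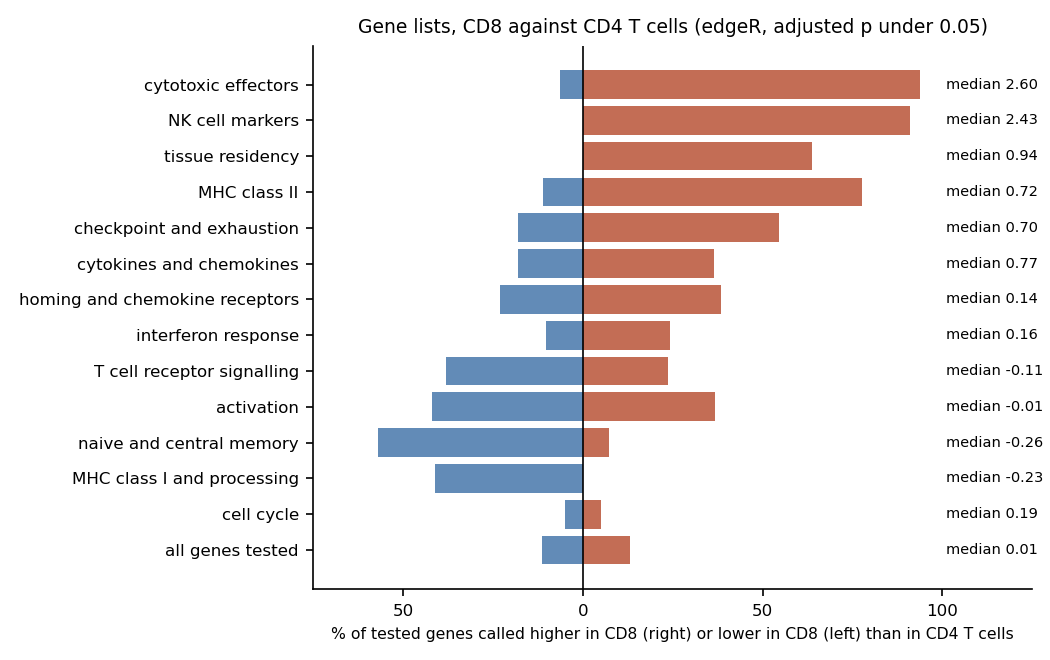
Percent of the tested genes of each list that were called higher (right) or lower (left) in CD8 than in CD4 T cells by edgeR, with the list's median log2 fold change at the right edge. Cytotoxic effectors (15 of 16 higher, median 2.60) and NK markers (10 of 11 higher, median 2.43) stand at the top, and the bottom bar gives all 9840 genes tested (13.1% higher, 11.4% lower).

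T cells with BLK or SOX13 and no CD4, a gate for the gamma-delta-like T cells that are abundant in pigs, numbered 4865 and included cells with CD8A, which stood at 11.9, 12.2, 23.0 and 29.2 CPM there. Against them, CD8 T cells were higher in granzymes, perforin, NK receptors and the CD28 family, and far lower in CD163L1, the WC1-type scavenger receptor of pig and cattle gamma-delta T cells. By edgeR with the library as a block, 3956 of 11979 genes differed (33.0%), with 2013 higher (16.8%) and 1943 lower (16.2%) in CD8 T cells. Without the block 2626 differed. The cytotoxic list gave 15 of 17 genes higher and the NK list 10 of 11, at medians of 2.79 and 2.56 on the log2 scale, against -0.0021 over all genes tested.

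GZMK separated these gates most among the granzymes. It had 40.5, 20.4, 26.2 and 35.5 CPM in CD8 T cells, against 0.574, 0.617, 2.34 and 2.67 CPM in BLK/SOX13 T cells, a log2 fold change of 4.30 ± 0.40 (SE, edgeR adjusted p = 0.000255). GZMA, which lies beside it on chromosome 16, was a rare transcript, at 2.63, 2.59, 3.21 and 3.35 CPM in CD8 T cells, against 0.230, 0.411, 0.260 and 0.111 CPM in BLK/SOX13 T cells. PRF1, GNLY and KLRK1 were higher by 2.68 ± 0.18, 2.96 ± 0.14 and 2.79 ± 0.21 on the log2 scale (SE, edgeR adjusted p = 7.99e-05, 3.17e-05 and 0.000113). The T cell receptor side differed as well, with 13 of 21 signalling genes higher and 3 lower. LCK, the kinase that starts signalling at the receptor and binds the CD4 and CD8 tails, had 658, 714, 685 and 707 CPM in CD8 T cells, against 70.6, 82.6, 167 and 128 CPM in BLK/SOX13 T cells. CD2, CD6 and CD28 stood at 132 ± 24.5, 242 ± 58.1 and 89.8 ± 23.9 CPM in CD8 T cells, against 17.8 ± 9.30, 33.3 ± 13.4 and 8.88 ± 4.07 CPM in BLK/SOX13 T cells (SD, n = 4 libraries each). Between CD8 and CD4 T cells the difference in CD2 was 0.28 on the log2 scale, at 125, 114, 121 and 168 CPM of CD2 in CD8 T cells and 102, 96.8, 104 and 131 CPM in CD4 T cells.

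On the other side, CD163L1 had 0.658, 0, 0.179 and 0.670 CPM in CD8 T cells, against 61.0, 40.0, 35.2 and 55.1 CPM in BLK/SOX13 T cells. C9H1orf186 had 6.25, 13.7, 14.6 and 7.81 CPM in CD8 T cells, against 1474, 1800, 1407 and 1366 CPM in BLK/SOX13 T cells, a log2 fold change of -7.16 ± 0.19 (SE, edgeR adjusted p = 6.57e-06). It was the gene furthest from the CD8 gate among those named by size. IL1RL1, the receptor for IL-33, IL9R, the receptor for IL-9, and CCR6, a receptor for mucosal and skin chemokine CCL20, had log2 fold changes of -6.54 ± 0.27, -6.09 ± 0.43 and -5.08 ± 0.26 (SE, edgeR adjusted p = 1.86e-05, 0.000101 and 3.51e-05). The transcription factors SOX4, GATA3 and MAF were lower too, MAF at 95.1 ± 16.5 CPM in CD8 T cells and 378 ± 27.5 CPM in BLK/SOX13 T cells (SD, n = 4 libraries each). TNFSF11 stood at 5.10 ± 6.03 CPM in CD8 T cells and 31.0 ± 10.2 CPM in BLK/SOX13 T cells (SD, n = 4 libraries each, edgeR adjusted p = 0.0145). Cell cycle genes were higher in CD8 T cells for 13 of 24 tested and lower for 2, and MKI67, the proliferation antigen, stood at 12.5, 7.03, 19.1 and 44.2 CPM in CD8 T cells, against 7.81, 1.44, 3.82 and 7.80 CPM in BLK/SOX13 T cells. Of 12 checkpoint genes, 10 were higher and 1 was lower, at a median of 1.94 on the log2 scale.

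T cells with both CD4 and CD8A numbered 228, at 58, 33, 90 and 47 cells, so these sums are small. By edgeR with the library as a block, 756 of 8774 genes differed (8.62%), with 456 higher (5.20%) and 300 lower (3.42%) in CD8 T cells. The number was 327 without 1797 library 1, 295 without control library 1, 310 without control library 2 and 276 without the library block. Of 16 cytotoxic effectors tested, 9 were higher and SRGN was lower, with a median log2 fold change of 1.45. PRF1 had 81.3, 43.3, 88.0 and 89.3 CPM in CD8 T cells, against 19.1, 26.3, 27.1 and 16.4 CPM in CD4+CD8A+ T cells, a log2 fold change of 1.86 ± 0.25 (SE, edgeR adjusted p = 0.00124). KLRK1 had 388, 246, 399 and 351 CPM, against 63.5, 78.8, 82.5 and 65.8 CPM, and differed by 2.32 ± 0.16 (SE, edgeR adjusted p = 1.58e-05). For both genes the CD4+CD8A+ cells lay between the CD8 and the CD4 gates in every library. Scrublet marked 6.90, 12.1, 4.44 and 2.13% of the CD4+CD8A+ cells as doublets, against 3.49, 6.54, 3.66 and 6.49% of CD8 T cells. The part of doublets in these values was not tested. TNFRSF4 had 7.57, 1.85, 3.39 and 5.36 CPM in CD8 T cells, against 132, 52.5, 73.4 and 69.5 CPM in CD4+CD8A+ T cells. CD4+CD8A+ cells lay between the other gates here too, on the side of the CD4 gate. The log2 fold change was -4.13 ± 0.26 for TNFRSF4 and -2.63 ± 0.27 for CD40LG (SE, edgeR adjusted p = 8.85e-06 and 0.000273). CD8B had 53.6, 42.9, 42.3 and 63.8 CPM in CD8 T cells, against 7.94, 3.75, 7.91 and 11.0 CPM in CD4+CD8A+ T cells. Of 20 cell cycle genes tested, none was higher and 4, TYMS among them, were lower in CD8 T cells.

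Within the gate, cells with a CD8B UMI were set against cells without one, in the same libraries. In the summed counts, cells with CD8B held more GZMB, ITGAE and LEF1 and less GNLY, NCR1 and TNF, at depths that differed between these cells. They numbered 91 and 74 with the 1797 peptide, against 133 and 151 with the control peptide. Detection of a rare transcript depends on depth, and the median was 7159, 8554, 7609 and 8749 UMIs in cells with CD8B, against 7244, 7497, 6892 and 7892 UMIs in cells without it. By edgeR with the library as a block, 610 of 8777 genes differed (6.95%), with 155 higher (1.77%) and 455 lower (5.18%) in cells with CD8B. When cells were thinned to 3000 UMIs before the split, 21 of 5680 genes differed. Of the 610 genes, 527 were tested there, 501 of these kept their direction and 16 were called. Without the library block 1 gene was called. Leaving out a library left 323 calls without 1797 library 1, 388 without 1797 library 2, 177 without control library 1 and 252 without control library 2.

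GZMB had 48.6, 108, 63.0 and 107 CPM in cells with CD8B, against 24.1, 53.8, 25.5 and 41.6 CPM in cells without it. CD8B cells were higher in all 4 libraries, and the log2 fold change was 1.14 ± 0.14 (SE, edgeR adjusted p = 0.00224). This order did not hold in cells thinned to 3000 UMIs, where GZMB was found in 4.65, 8.33, 15.4 and 13.7% of cells with CD8B, against 5.92, 15.3, 7.31 and 13.0% of cells without it. ITGAE had 81.1, 37.5, 57.9 and 44.6 CPM in cells with CD8B, against 25, 23.9, 25.5 and 24.4 CPM in cells without it, a log2 fold change of 1.07 ± 0.19 (SE, edgeR adjusted p = 0.00787), and without control library 1 it was 1.04 (edgeR adjusted p = 0.0593). LEF1, a transcription factor of naive T cells, and FOXP1, a quiescence factor, were higher by 0.67 ± 0.10 and 0.49 ± 0.07 on the log2 scale (SE, edgeR adjusted p = 0.00475 and 0.00278). Of 14 naive and central memory genes, 5 were higher and none was lower, with a median of 0.09, against 0.02 over all genes tested.

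GNLY had 162, 144, 480 and 566 CPM in cells with CD8B, against 384, 603, 667 and 1013 CPM in cells without it. The log2 fold change was -1.12 ± 0.18 (SE, edgeR adjusted p = 0.00523), and the 1797 libraries showed the widest gap. NCR1 stood at 3.48 ± 2.81 CPM in cells with CD8B and 19.8 ± 4.4 CPM in cells without it (SD, n = 4 libraries each), a log2 fold change of -2.41 ± 0.38 (SE, edgeR adjusted p = 0.00525). Of 11 NK markers tested, 5 were lower in cells with CD8B and none was higher, with a median of -0.55. TNF, tumour necrosis factor, had a log2 fold change of -1.13 ± 0.18 in cells with CD8B (SE, edgeR adjusted p = 0.00493). None of GZMB, ITGAE, LEF1, GNLY and TNF was called in thinned cells. The thinned log2 fold change was 0.23 for GZMB and -0.43 for TNF (edgeR adjusted p = 0.877 and 0.715). It was 0.76 for ITGAE, 0.90 for LEF1 and -0.83 for GNLY (edgeR adjusted p = 0.462, 0.0693 and 0.0505). Of 28 immediate-early genes, which also rise during tissue digestion, none had a positive log2 fold change and 10 were lower in cells with CD8B. Heat shock genes were lower for 8 of 13. Bone stromal markers moved with this split, with 3 of 7 lower in cells with CD8B, COL1A1 at 92.1 ± 55.5 CPM in cells with CD8B and 410 ± 469 CPM in cells without it (SD, n = 4 libraries each). Their part in the split was not tested.

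Genes found in the same cells described 2 ends within the gate. In cells thinned to 3000 UMIs, GNLY was found in 80, 83, 213 and 216 cells. IL7R was found in 1.25, 6.02, 6.57 and 8.33% of cells with GNLY, against 22.5, 35.3, 16.2 and 40.4% of cells without it. CCR7 was found in 1.25, 3.61, 5.16 and 0.926% of cells with GNLY, against 16.5, 17.9, 9.98 and 16.9% of cells without it. In every library both were rarer among the GNLY cells. GZMK was also rarer among the GNLY cells, in 1.25, 1.20, 0.939 and 0.926% of cells with GNLY, against 12.7, 4.68, 7.90 and 11.8% of cells without it. GZMB was more often found with GNLY, in 13.8, 27.7, 13.6 and 16.7% of cells with it, against 3.52, 10.2, 5.61 and 10.3% of cells without it. GZMH was spread over both, in 66.2, 77.1, 70.9 and 66.7% of cells with GNLY, against 46.8, 63.8, 52.6 and 54.0% of cells without it. FCER1G, a gene of the NK and the monocyte lists, was found in 21.2, 14.5, 23.9 and 18.1% of cells with GNLY. Without GNLY its shares were 5.99, 7.66, 14.1 and 9.93%. CD8B was found in 1.25, 6.02, 7.04 and 14.8% of cells with GNLY, against 14.8, 8.09, 10.4 and 15.1% of cells without it. The part of NK cells in these shares was not tested. Among cells with CCR7, LEF1 was found in 54.2, 51.1, 40.7 and 47.9%, against 12.7, 19, 12 and 13.2% of cells without CCR7. As a background, GNLY was found, without thinning, in 25.3, 31.8, 36.3 and 49.3% of CD8 T cells and in 1.68, 2.27, 6.20 and 9.06% of B cells. GZMH was found in 1.01, 1.75, 3.96 and 3.24% of B cells. Thinning left out 32 of the 1896 CD8 T cells for too few UMIs, at 8, 3, 16 and 5 by library. Cells of 1 library are not replicates, so these shares carry no test.

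**Figure D4:**
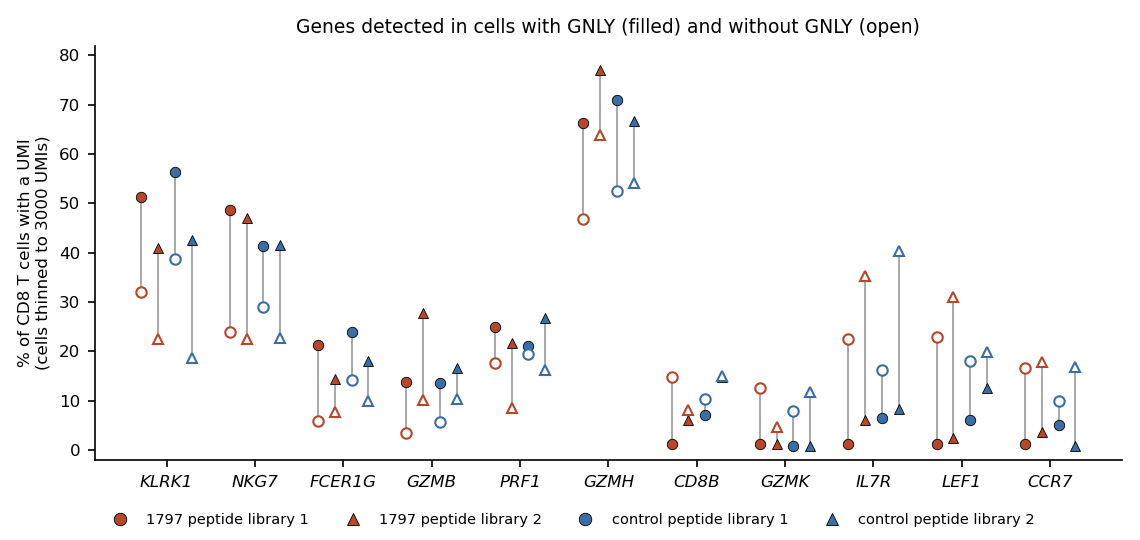
Percent of CD8 T cells, thinned to 3000 UMIs, with a UMI of each gene, among cells with GNLY (filled) and without GNLY (open), for each of the 4 libraries. KLRK1, NKG7, FCER1G and GZMB are more often found with GNLY in every library (KLRK1 in 51.2, 41.0, 56.3 and 42.6%, against 32.0, 22.6, 38.7 and 18.8%). CD8B, GZMK, IL7R, LEF1 and CCR7 are more often found without it.

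The comparison of peptides within CD8 T cells called no gene at an adjusted p under 0.05 by edgeR, 0 of 10652 (0.0%), with 405 genes (3.80%) at an unadjusted p under 0.05. DESeq2 called 9 genes (0.0845%) on the same sums. In 1570 genes (14.7%) both 1797 libraries lay above both control libraries, and in 1888 genes (17.7%) both lay below. Leaving out 1797 library 2 gave 8 calls and leaving out 1797 library 1 gave 2. Fewer cells with a transcript and less of it per cell cannot be told apart in summed counts.

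Among genes whose libraries did not overlap, those with the smallest unadjusted p were the following, as a description. TIAM2 (chromosome 1, 11648506 to 11897869), an activator of the GTPase RAC that shapes cell migration, had 280 and 121 CPM in 1797 CD8 T cells, against 20.2 and 21.2 CPM in control CD8 T cells. The log2 fold change was 3.29 ± 0.41 (SE, edgeR adjusted p = 0.998). Over 14 alternatives it ran between 2.59 and 3.88, with adjusted p between 8.06e-14 (DESeq2) and 0.999 (edgeR), and 5 of them called it, among them edgeR without 1797 library 2 (3.75, adjusted p = 0.00321). The 1797 libraries differed more from each other than the control libraries did. CD4 T cells had 253 and 106 CPM with the 1797 peptide, against 28.1 and 28.2 CPM with the control peptide. BLK/SOX13 T cells did not share this gap, with 43.5 and 55.6 CPM with the 1797 peptide, against 27.6 and 47.6 CPM with the control peptide. CHSY3, an enzyme that builds chondroitin sulfate, had 74.7 and 45.9 CPM in 1797 CD8 T cells, against 6.96 and 13.2 CPM in control CD8 T cells, and WWTR1, the transcription coactivator TAZ, had 30.9 and 45.5 CPM, against 12 and 9.6 CPM.

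SLA-1 (chromosome 7, 22824137 to 22920154), a heavy chain of pig MHC class I, had 1621 and 1754 CPM in 1797 CD8 T cells, against 590 and 600 CPM in control CD8 T cells. The log2 fold change was 1.52 ± 0.12 (SE, edgeR adjusted p = 0.211), and 5 of 14 alternatives called it, with adjusted p between 9.98e-17 (DESeq2) and 0.981 (edgeR). The other gates showed the same step, with 1906 and 1901 CPM against 734 and 731 CPM in CD4 T cells, and 1272 and 1560 CPM against 469 and 498 CPM in B cells. The related gene SLA-2 did not, at 1246 and 845 CPM in 1797 CD8 T cells, against 1079 and 1375 CPM in control CD8 T cells. The annotated SLA-1 region overlaps SLA-2, these genes are near-identical and vary between animals, and the split of reads between them is uncertain. Of 17 genes of class I and its peptide loading, 10 had a positive log2 fold change, with a median of 0.04.

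Lower with the 1797 peptide, without a call by edgeR, was IL12RB2 (chromosome 6, 145210251 to 145292399), a chain of the receptor for IL-12, which drives interferon gamma in T cells. It had 787 and 690 CPM in 1797 CD8 T cells, against 1220 and 1279 CPM in control CD8 T cells, a log2 fold change of -0.74 ± 0.12 (SE, edgeR adjusted p = 0.998). Over 14 alternatives the adjusted p ran between 0.0136 (DESeq2) and 1.00 (edgeR), and DESeq2 alone called it. MYO1F, a myosin motor of leukocytes, had 104 and 91.8 CPM in 1797 CD8 T cells, against 148 and 175 CPM in control CD8 T cells. MT-2B, a metallothionein, had 13.8 and 21.5 CPM in 1797 CD8 T cells, against 54.6 and 90.0 CPM in control CD8 T cells. In CD4 T cells it stood at 43.4 and 13.6 CPM with the 1797 peptide, against 118 and 122 CPM with the control peptide.

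No cytotoxic effector and no naive or memory gene was called between peptides by edgeR. GNLY had 325 and 485 CPM in 1797 CD8 T cells, against 628 and 856 CPM in control CD8 T cells, without overlap. Its log2 fold change was -0.85 ± 0.25 (SE, edgeR adjusted p = 0.998). It was called by edgeR when a CD8B UMI was also required (-1.76, adjusted p = 0.0423), the lowest of 14 alternatives, whose highest was 1.00. PRF1 had 81.3 and 43.3 CPM in 1797 CD8 T cells, against 88.0 and 89.3 CPM in control CD8 T cells. XCL1 had 12.2 and 12.6 CPM in 1797 CD8 T cells, against 40.2 and 17.6 CPM in control CD8 T cells. Of 17 cytotoxic effectors, 3 had a positive log2 fold change, with a median of -0.22, against -0.0002 over all genes tested. Both 1797 libraries lay below both control libraries in 8 of them and above in none, beside 17.7% below and 14.7% above over all genes tested. GZMB, at 30.6 and 67.7 CPM in 1797 CD8 T cells and 33.4 and 64.5 CPM in control CD8 T cells, and GZMH, at 277 and 503 CPM against 397 and 413 CPM, overlapped between groups. The other 11 NK markers, without GNLY, summed to 1328 and 1342 CPM with the 1797 peptide, against 1631 and 1583 CPM with the control peptide. Their part in the GNLY values was not tested.

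LEF1 had 219 and 353 CPM in 1797 CD8 T cells, against 145 and 216 CPM in control CD8 T cells, and CCR7 had 70.4 and 84.8 CPM, against 45.9 and 62.5 CPM. The groups did not overlap for either, and the log2 fold changes were 0.69 ± 0.30 and 0.54 ± 0.23 (SE, not called by edgeR). Of 14 naive and central memory genes, 11 had a positive log2 fold change, with a median of 0.14. Both 1797 libraries lay above both control libraries in 3 of them and below in 1, beside 14.7% above and 17.7% below over all genes tested. TCF7, a factor of naive and memory T cells, was the gene below, at 147 and 151 CPM in 1797 CD8 T cells, against 181 and 158 CPM in control CD8 T cells. CCR7 was found in 21.2 and 27.4% of 1797 CD8 T cells, against 16.5 and 19.7% of control CD8 T cells. Thinned to 3000 UMIs, the shares were 13.2 and 14.2% with the 1797 peptide, against 8.50 and 9.84% with the control peptide. B cells are no background for CCR7, since they carry it themselves at 373, 342, 278 and 287 CPM.

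Cell cycle genes had a positive log2 fold change in 3 of 23 genes tested, with a median of -0.60. Both 1797 libraries lay below both control libraries in 11 of them and above in 1, beside 17.7% below and 14.7% above over all genes tested. MKI67 had 12.5 and 7.03 CPM in 1797 CD8 T cells, against 19.1 and 44.2 CPM in control CD8 T cells, and was found in 3.76 and 2.18% of cells, against 4.51 and 4.46%. Of 12 monocyte and macrophage markers tested, 7 also lay below in both 1797 libraries and none above, with a median of -0.66. The summed level of that list's 14 markers was 1110 and 311 CPM with the 1797 peptide, against 455 and 470 CPM with the control peptide, so it overlapped and was led by CST3. The summed erythroid markers stood at 2616 and 348 CPM with the 1797 peptide, against 1513 and 168 CPM with the control peptide, and the neutrophil markers at 272 and 1179 CPM, against 240 and 1640 CPM. The summed stromal markers stood at 1455 and 370 CPM with the 1797 peptide, against 2361 and 1114 CPM with the control peptide, and overlapped. The summed endothelial markers did not overlap, at 76.7 and 102 CPM with the 1797 peptide, against 52.5 and 51.3 CPM with the control peptide. Of the 4 endothelial markers tested, 3 lay above in both 1797 libraries, with a median of 0.83 on the log2 scale. No marker of these lists was at 0 in all 4 libraries, and their part in the values above was not tested.

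Genes through which T cells act on osteoclasts were low and uneven. TNFSF11 had 13.8 and 0.370 CPM in 1797 CD8 T cells, against 1.96 and 4.24 CPM in control CD8 T cells. IFNG, which restrains osteoclast formation in mice, had 15.5 and 35.9 CPM, against 19.5 and 10.5 CPM, and TNF, which favours it, had 29.6 and 68.1 CPM, against 27.9 and 34.4 CPM. The groups overlapped for TNFSF11, IFNG and TNF. The TNF difference was 0.67 on the log2 scale and -0.0747 without 1797 library 2, with no call by edgeR in either. Of the 8 genes tested on this list, 6 had a positive log2 fold change and none was called. The groups did not overlap for 1 of them, TGFB1, beside 32.5% of all genes tested.

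**Figure D5:**
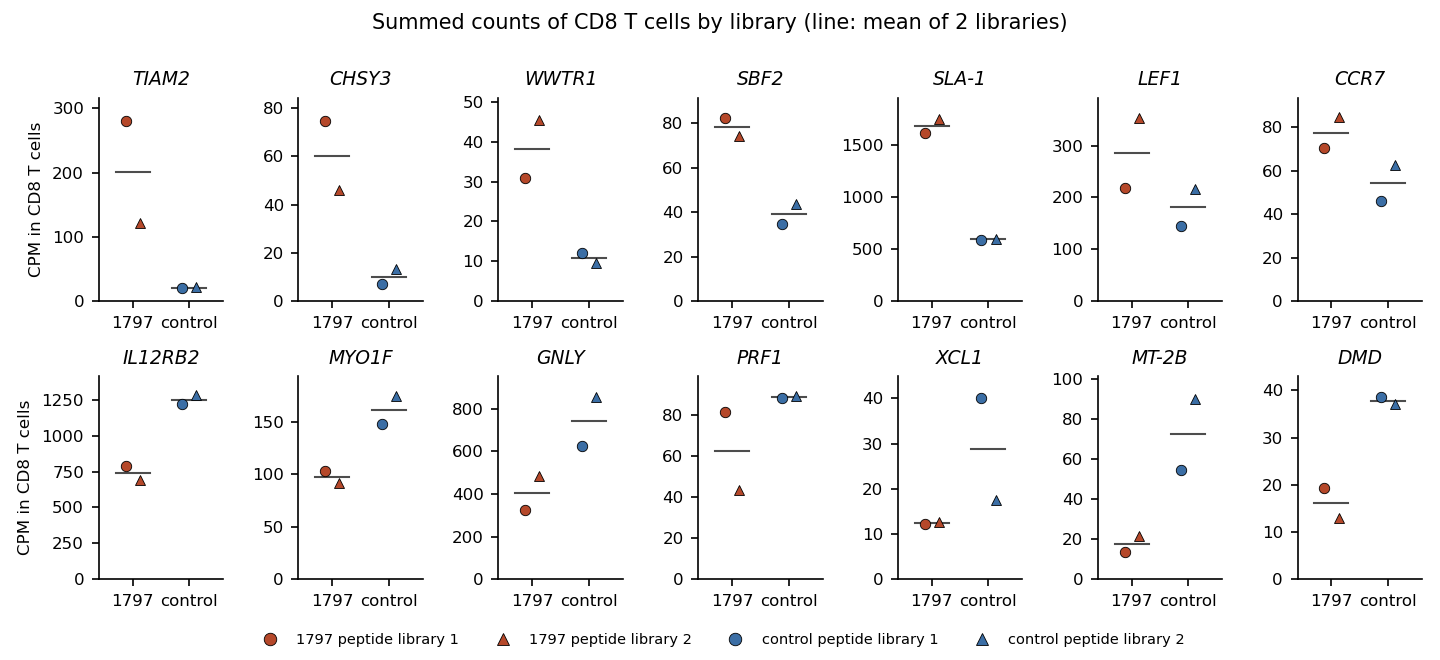
CPM of 14 genes in summed CD8 T cells of each library, 1797 peptide at the left and control peptide at the right of each panel, with a line at the mean of 2 libraries. TIAM2, CHSY3, WWTR1, SBF2, SLA-1, LEF1 and CCR7 lie higher in both 1797 libraries, and the other 7 genes lie lower in both; edgeR called none of them.

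Whether the peptide difference was another in CD8 than in CD4 T cells was tested as an interaction over both gates. No gene passed an adjusted p under 0.05 by edgeR, 0 of 10749 (0.0%), with 451 genes (4.20%) at an unadjusted p under 0.05. DESeq2 called 0 genes, with 101 at an unadjusted p under 0.05. Leaving out 1797 library 1 gave 105 calls by edgeR, leaving out 1797 library 2 gave 3 and leaving out control library 2 gave 2. For TIAM2 the difference between the gates was 0.64 ± 0.21 on the log2 scale (SE, edgeR adjusted p = 0.996), the sign being that of the CD8 minus the CD4 difference.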

How the data were processed

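The authors deposited filtered matrices of raw UMI counts for 20648 genes in 4 libraries; the deposited lists of names and barcodes are text. Reads were counted by Cell Ranger 5.0.0 against Sscrofa11.1, per the submitters' processing notes, while the matrices name version 7.0.1, per the file headers. RefSeq's table of genes on Sscrofa11.1 gave the coordinates, which are counted from 1.

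A barcode was kept if it had 200 genes or more and less than 20% of its UMIs in 13 mitochondrial genes. Doublets were not removed; Scrublet in scanpy 1.11.5 (expected rate 0.1) served an alternative. Counts were summed per library and gate and tested with edgeR 4.0.16 in R 4.3.3 (TMM factors, filterByExpr, quasi-likelihood test, Benjamini-Hochberg adjustment over all genes tested), with the library as a block between gates and no covariate between peptides. DESeq2 1.42.0, RLE size factors, no filter, other gates, thinned cells and leaving out each library were alternatives. CPM are counts scaled to the same total in each sum. The edgeR fits were tested on simulated counts. Gate genes were left out of all calls.

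The gate's members and the 25 gene lists were chosen with earlier results of these data known. Named genes were 35 fixed genes, up to 4 members per list with the highest CPM plus members called, and the largest called changes of at least 1 on the log2 scale with mean CPM of at least 20 and the same direction in every library (12 each way against CD4 T cells, 6 for other gates). For the peptides, up to 5 genes each way with the smallest unadjusted p and no overlap were named. Replicate numbers were not taken to pair the libraries.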

Additional observations from a re-analysis of the deposited data

How the results depend on the processing

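The lower share of CD8 T cells with the 1797 peptide kept its direction with CD3 cells as the base (-3.76 percentage points). It did so with doublets removed (-2.04), under a stricter cell filter (-2.05) and thinned to 1000 UMIs (-0.109). Leaving out a library could not reverse the direction, because both 1797 libraries lay below both control libraries. It gave differences between -2.59 and -1.45 percentage points.

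The peptide comparison, with 0 genes called, gave 9 by DESeq2, 4 with no filter on low counts, 1 with at least 2 CD8A UMIs, 3 with a CD8B UMI required and 2 with cells thinned to 1000 UMIs; leaving out a library gave 0 to 8. An added alternative, chosen after seeing the data, took cells without CD8B and gave 0. With the replicate number as a block, the pairing left 0 calls; deviations of same-numbered libraries correlated at r = 0.086 over 10656 genes, under the 0.1 asked for pairing. Same-numbered libraries did share more HBB (number 1) or more S100A8 (number 2), and the labels give no shared batch. CD8 against CD4 T cells, with 2404 calls, gave 1238 with no library block, 1536 with CD8B required and 1760 to 2084 without a library. Against CD4+CD8A+ T cells, 756 calls became 1243 with no filter, 276 with no library block and 295 to 870 without a library. Against BLK/SOX13 T cells, 3956 became 2626 with no library block and 2864 to 3189 without a library. The CD8B split, with 610, gave 393 by DESeq2, 1175 with no filter, 1 with no library block, 21 thinned and 177 to 388 without a library. The interaction, with 0, gave 84 with no filter and 0 to 105 without a library. The cause of these changes was not tested.

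Signs were compared only for named genes whose log2 fold change was at least its SE. In the peptide comparison these were 27 of 45, and 17 of the other 18 changed sign under some alternative. In the thinned CD8B split CCL5 was at 0.0304, LAG3 at -0.22, NKG7 at -0.11, PR39 at -0.32 and S1PR1 at -0.0196. Against CD4 T cells with CD8B required, CXCR3 was at 0.0783 and TNF at -0.62. In the peptide comparison IFI6 was at 0.12 with CD8B required and TBX21 at 0.17 thinned. Leaving out a library gave -0.0747 to 1.17 for TNF, -0.26 to 1.11 for CD69, -0.80 to 0.0397 for ISG15 and -0.79 to 0.0732 for IFI6.

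With 2 libraries a group, the smallest p of the exact test of a share is 0.33. Between 18.7 and 30.6% of CD8 T cells held a CD8B UMI, so a cell without one is not shown to lack the gene.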
